A study of Mus musculus with 14 samples.

Results

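The Bcl2 family genes Bcl2, Bcl2l1, Mcl1, Bcl2l11, Bid, Bad and Bak1 were followed in 14 mouse thymic lymphomas, 7 of the Vav-SB strain and 7 of the CD4-SB strain. Of 8 family genes chosen by name, 7 were measured, with 67 of the 194293 probe sets of the exon array, and Bax is not analysed here. Both strains model T-ALL, a leukaemia of T-cell precursors, with Sleeping Beauty, a transposon that jumps through the genome and mutates genes where it lands. The study's title asks how the cell of origin shapes the mutations that are selected. The strain names refer to drivers of the transposase: Vav is active in blood cells from the stem cell on, and CD4 from the thymocyte stage that carries both CD4 and CD8. The labels give neither the full genotypes, the ages nor the sexes of the animals, and they leave unsaid which tumours share an animal. All p-values therefore describe spread among these tumours only. The first number in a tumour's title is shared by some CD4-SB tumours (4 numbers in 7 tumours) and by no Vav-SB tumours (7 numbers).

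Proteins of this family decide at the mitochondrion whether a cell lives. BCL2, BCL-xL (from Bcl2l1) and MCL1 hold the effectors BAX and BAK in check, and the BH3-only proteins, among them BIM (from Bcl2l11), BID and BAD, bind the survival proteins or the effectors and so promote release of cytochrome c. In the mouse thymus BCL-xL sustains thymocytes that carry both CD4 and CD8, BCL2 is abundant in earlier and later stages, and BIM drives the death of self-reactive cells.

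A gene's level below is the mean log2 value of its probe sets, each a few probes placed mostly within 1 exon. Levels are set against each other only within a gene. Differences are Vav-SB minus CD4-SB on the log2 scale, tested with limma over all 15803 named genes with Benjamini-Hochberg adjustment and a threshold of 0.05, and SDs are over n = 7 tumours per model. The values were already aligned between arrays: array medians ran from 7.46 to 7.50, and 2 arrays correlated at 0.877 to 0.968. Markers of the T lineage were high in both models, at 10.67 ± 0.14 in Vav-SB tumours and 10.26 ± 0.28 in CD4-SB, where the median of all genes was 7.22, and all 9 measured markers of double-positive thymocytes passed as higher in Vav-SB, at a mean level of 9.77 ± 0.28 in Vav-SB tumours and 6.82 ± 0.32 in CD4-SB tumours. The other cell types that a thymic tumour can hold were followed by markers of stromal, B, dendritic and myeloid cells, which averaged 7.84 ± 0.25 in Vav-SB, from 7.58 to 8.28, and 8.61 ± 0.44 in CD4-SB, from 7.99 to 9.19 (exact permutation p = 0.0035, two-sided). Of these 37 markers, 1 was higher and 12 were lower in Vav-SB past the threshold, where 7.28% of all genes were higher and 7.18% lower. These are bulk tumours, so fewer cells of a type and less RNA per cell cannot be told apart.

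None of the 7 family genes passed the gene test in limma, whereas 14.5% of all genes did, 7.28% as higher and 7.18% as lower in Vav-SB. At an unadjusted p under 0.05 there were 2, Bid and Bad, both in limma and by an exact permutation test. In limma 27.8% of all genes reached that level, so 2 of 7 is close to the share on the whole array. With only the 7901 genes above the median level tested, which hold all 7 family genes, 1897 passed the adjusted threshold and 0 of the 7 did. Bid averaged 1.47-fold higher and Bad 1.2-fold lower in Vav-SB tumours, both short of the adjusted threshold, and the other 5 genes lay between -0.09 and 0.31 on the log2 scale. All 7 genes overlapped between the models, as did all but 4.04% of genes on the array. What set the models apart to the eye was the spread of Bcl2 among CD4-SB tumours.

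**Figure D1:**
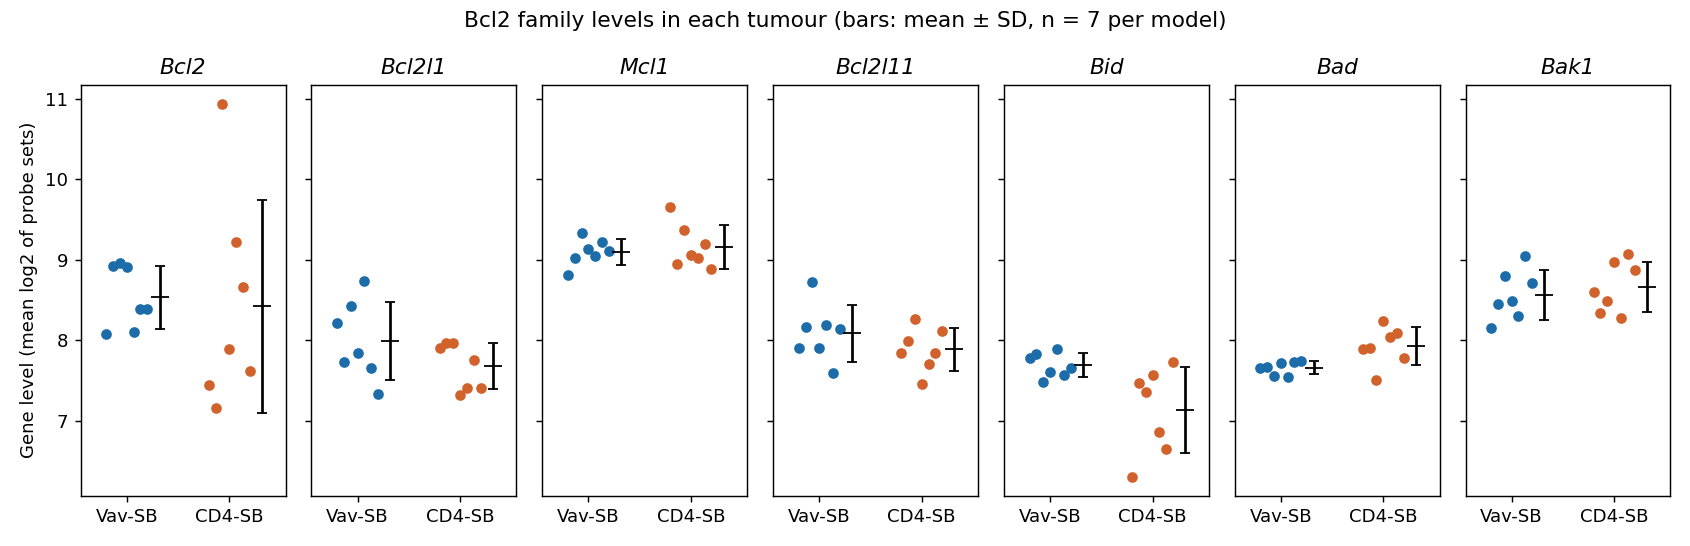
Gene level (mean log2 of probe sets) of the 7 family genes in each Vav-SB (blue) and CD4-SB (orange) tumour, replicates in order from left to right, with mean ± SD beside them (n = 7 per model). The CD4-SB tumours spread widely for Bcl2, from 7.16 to 10.94, and 3 of them lie low for Bid.

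For orientation on the sequence of these genes, the promoters of Bcl2, the member with the widest spread, and of Bid, the member with the largest mean difference, are printed from RefSeq (GRCm38.p6), 250 bases before to 50 after the transcription start, 5′ to 3′ on the gene's own strand. Capitals mark the core motif of MYB, AACNG, searched on both strands with overlaps allowed. It was chosen after the values were seen, because Myb, a transcription factor known to act on Bcl2, differed between the models (below).
Bcl2, chr1:106714241-106714540, minus strand: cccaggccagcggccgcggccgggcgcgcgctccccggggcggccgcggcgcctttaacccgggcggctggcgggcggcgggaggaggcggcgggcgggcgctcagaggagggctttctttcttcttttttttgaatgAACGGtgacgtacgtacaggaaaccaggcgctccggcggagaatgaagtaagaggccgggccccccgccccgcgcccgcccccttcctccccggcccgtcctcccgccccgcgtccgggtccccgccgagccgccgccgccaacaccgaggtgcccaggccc
Bid, chr6:120916775-120917074, minus strand: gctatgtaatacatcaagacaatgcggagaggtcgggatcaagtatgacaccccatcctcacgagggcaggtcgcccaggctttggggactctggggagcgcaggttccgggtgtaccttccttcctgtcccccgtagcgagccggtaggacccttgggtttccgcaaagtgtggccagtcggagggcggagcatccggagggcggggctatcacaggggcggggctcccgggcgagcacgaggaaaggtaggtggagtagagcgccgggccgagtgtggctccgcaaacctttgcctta
The motif stood once in the Bcl2 window and not in the Bid window. Of 32851 promoters of the same length, 80.3% held it, so a match is common and is only a description.

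Among the survival genes, Bcl2 lay between 8.08 and 8.96 in Vav-SB tumours, with a median of 8.38, against 7.16 to 10.94 in CD4-SB tumours, with a median of 7.90. The Vav-SB values all lay inside the CD4-SB range. The means were 8.53 ± 0.39 in Vav-SB tumours and 8.42 ± 1.32 in CD4-SB, a difference of 0.12 with a 95% interval of -0.89 to 1.13 (adjusted p = 0.908). The SD in CD4-SB was larger than that of 98.9% of genes there, and the SD in Vav-SB larger than that of 87.1% of genes. Among the CD4-SB tumours, replicates 3, 5 and 6 were at 10.94, 9.22 and 8.66, and replicates 1, 2, 4 and 7 at 7.44, 7.16, 7.90 and 7.61. These 4 lower tumours all lay below the lowest Vav-SB tumour.

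CD4-SB replicate 3 was 8.27-fold above the median of its model for Bcl2. In that tumour 8 of the 9 Bcl2 probe sets stood above every Vav-SB tumour, and 8 were the highest of all 14 tumours. The brightest probe set, 5010010, was at 13.41 there, against 10.91 to 12.24 in Vav-SB tumours and 9.80 to 12.39 in the other CD4-SB tumours. The exception was 4558502, which moved little in any tumour, between 7.09 and 7.93 in Vav-SB tumours and between 6.81 and 7.28 in CD4-SB. CD4-SB replicate 5 stood above every Vav-SB tumour in 6 of the 9 probe sets. At the other end, replicate 1 lay below every Vav-SB tumour in 8, replicates 2 and 7 in 7 each and replicate 4 in 6. Without replicate 3 the SD of the CD4-SB tumours was 0.79 (n = 6), and the difference was 0.54, still short of the threshold (adjusted p = 0.288). The sign of this small difference was not settled: it was -0.17 with the median of the probe sets (adjusted p = 0.872), -0.34 when each title number gave 1 tumour (0.729), and 0.93 with the marker covariate described below. No Bcl2 probe set passed the probe set test. The 9 differences ran from -0.25 to 0.30.

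**Figure D2:**
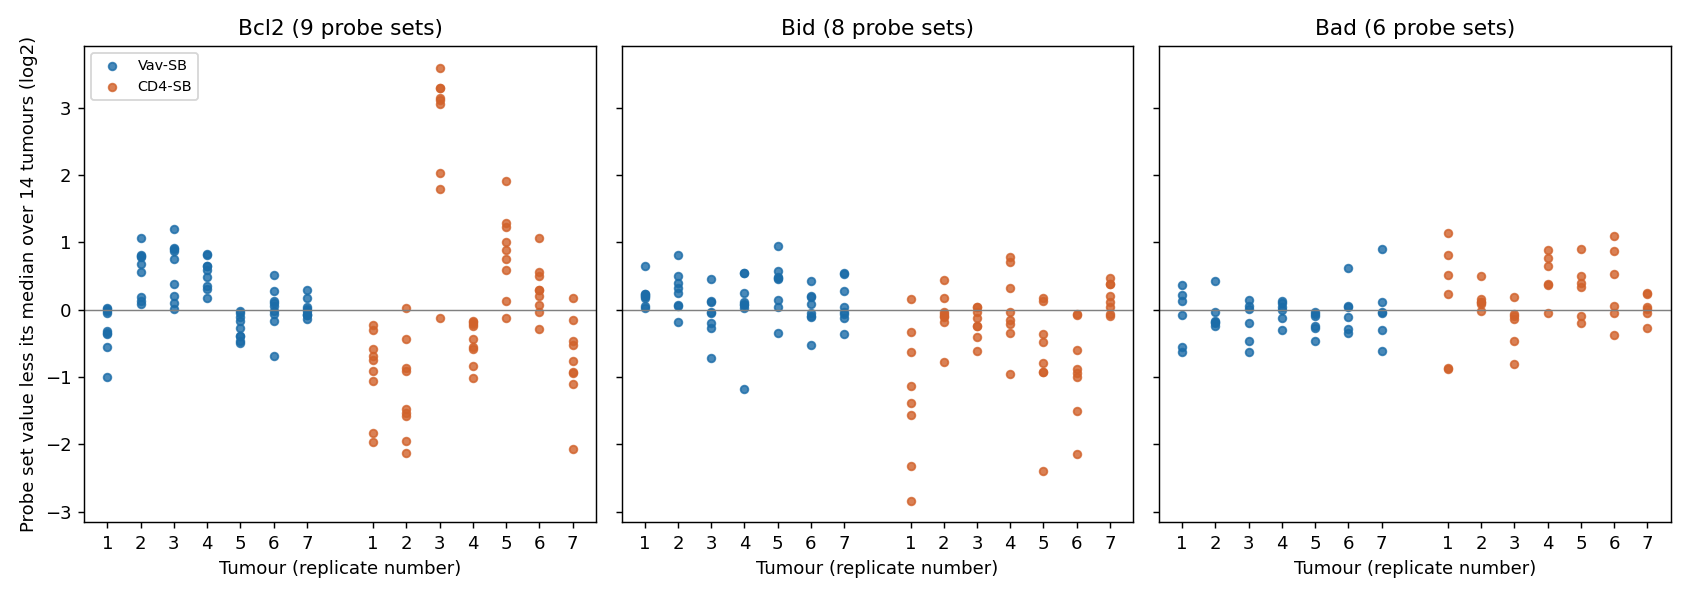
Each point is 1 probe set of Bcl2, Bid or Bad in 1 tumour, as its log2 value less the median of that probe set over all 14 tumours. Vav-SB tumours (blue) stand left of CD4-SB tumours (orange), and 8 of the 9 Bcl2 probe sets are raised together in CD4-SB replicate 3.

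Bcl2l1 lay between 7.33 and 8.74 in Vav-SB tumours, with a median of 7.84, against 7.32 to 7.97 in CD4-SB tumours, with a median of 7.76. Vav-SB replicates 1, 3 and 5, at 8.21, 8.43 and 8.74, lay above every CD4-SB tumour, and the other 4 lay inside the CD4-SB range. The means were 7.99 ± 0.49 in Vav-SB tumours and 7.68 ± 0.29 in CD4-SB, with a difference of 0.31 and an interval of -0.11 to 0.74 (adjusted p = 0.34). The wider spread was on the Vav-SB side, where the SD was above that of 92.3% of genes. Vav-SB replicate 5 held the highest value of all tumours in 8 of the 14 probe sets, and replicate 3 in 5. In 13 of the 14 probe sets the Vav-SB mean was the higher one, with none past the threshold (lowest adjusted p = 0.119).

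Mcl1, which thymocytes need at every stage, varied least among the survival genes. It lay between 8.80 and 9.33 in Vav-SB tumours, with a median of 9.11, and between 8.88 and 9.65 in CD4-SB tumours, with a median of 9.06. The ranges nearly coincided, and the means were 9.10 ± 0.17 in Vav-SB tumours and 9.16 ± 0.27 in CD4-SB (difference -0.06, interval -0.32 to 0.19, adjusted p = 0.787). The interval leaves room for a change of up to 0.32 on the log2 scale. CD4-SB replicate 1 was the highest tumour at 9.65 and held the top value in 6 of the 9 probe sets. Of these probe sets 4 were higher in Vav-SB tumours and 5 in CD4-SB, between -0.26 and 0.28.

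Among the BH3-only genes, Bcl2l11 lay between 7.59 and 8.72 in Vav-SB tumours, with a median of 8.13, against 7.46 to 8.26 in CD4-SB tumours, with a median of 7.85. The ranges overlapped widely except for Vav-SB replicate 3, which was at 8.72 and held the top value in 12 of the 15 probe sets. At the low end, CD4-SB replicate 4 held the lowest value in 8 of the 15. The means were 8.08 ± 0.35 in Vav-SB tumours and 7.89 ± 0.27 in CD4-SB (difference 0.20, interval -0.14 to 0.54, adjusted p = 0.473). The brightest Bcl2l11 probe set, 5041179, averaged 12.24 in Vav-SB tumours and 12.27 in CD4-SB, a difference of -0.04. The probe set nearest to the threshold was 5074723, at 7.72 ± 0.17 in Vav-SB tumours and 7.31 ± 0.18 in CD4-SB (adjusted p = 0.0506), and it passed in 4 of 18 other settings.

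Bid, whose product carries the signal of death receptors to the mitochondrion, lay between 7.48 and 7.90 in Vav-SB tumours, with a median of 7.65, against 6.30 to 7.73 in CD4-SB tumours, with a median of 7.35. CD4-SB replicates 1, 6 and 5 were the low ones, at 6.30, 6.65 and 6.86, and replicates 2 and 3, at 7.47 and 7.35, also fell just under the lowest Vav-SB tumour. The means were 7.69 ± 0.15 in Vav-SB tumours and 7.13 ± 0.54 in CD4-SB, with a difference of 0.55, an interval of 0.14 to 0.97 and an adjusted p of 0.0737 (unadjusted p = 0.0129, limma). It crossed the threshold without CD4-SB replicate 4 (adjusted p = 0.049) and without CD4-SB replicate 7 (0.0299), and with 1 tumour per title number (0.0488), the title number as a random block (0.0372), array weights (0.0178) and bright probe sets (0.0463). With the median of its probe sets in place of the mean, the Bid difference was 0.27 (adjusted p = 0.379). In the probe set test 2 of the 67 family probe sets passed, 1 higher and 1 lower in Vav-SB, where 8.45% of all probe sets passed, 4.57% as higher and 3.88% as lower. The higher one was 5430959 of Bid, whose models did not overlap: it ran from 8.72 to 9.13 in Vav-SB tumours and from 7.27 to 8.59 in CD4-SB (1.91-fold, adjusted p = 0.011). Of the 8 Bid probe sets 7 were higher in Vav-SB, and 4 had an unadjusted p under 0.05. Over the family 8 of 67 did, against 23% of all probe sets.

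Within a model, Bid was mostly lower where the level of the other cell types' markers was higher. CD4-SB replicate 1, with the lowest Bid, had the highest marker level at 9.19, and CD4-SB replicates 5 and 6 were at 8.95 and 8.66. CD4-SB replicate 3, at 8.87, had a marker level close to those but a Bid level of 7.35. Over the 42 pairs of tumours that share a model, Bid and the marker level were in the same order in 10, a count that low in 5.28% of genes set against Bid. Mcl1 and the marker level were in the same order in 31, a count that high in 8.75% of genes set against Mcl1. With the marker level as a covariate the Bid difference was -0.07, with an interval of -0.54 to 0.40 (adjusted p = 0.891), and the difference of probe set 5430959 no longer passed (adjusted p = 0.412). The same covariate gave 0.28 for Mcl1, 0.93 for Bcl2, 0.48 for Bcl2l1, 0.23 for Bcl2l11, -0.30 for Bad and -0.06 for Bak1, none past the threshold (adjusted p from 0.32 to 0.923). In that fit 434 genes passed, against 2284 without the covariate. The marker level itself differed between the models, so this fit cannot fully part it from strain. Standard errors were larger in it for every family gene, for Bcl2 0.69 against 0.47 and for Bid 0.22 against 0.20. A call can thus end through lost precision alone. For Bid, though, the difference itself moved, from 0.55 without the covariate to -0.07 with it. That of probe set 5430959 went from 0.93 to 0.47, with standard errors of 0.20 and 0.28. The cause of these changes was not tested.

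**Figure D3:**
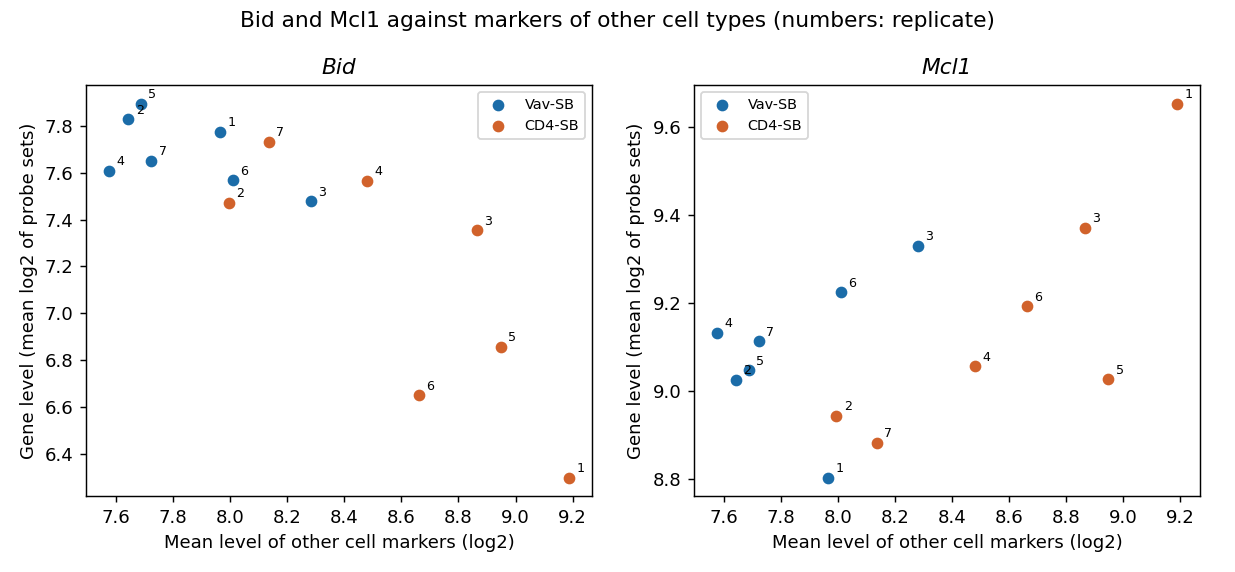
Gene level of Bid (left) and Mcl1 (right) against the mean log2 level of the 37 other-cell markers (stromal, B, dendritic, myeloid) in each tumour, with replicate numbers beside the points. The CD4-SB tumours with marker levels of 8.66, 8.95 and 9.19 hold the 3 lowest Bid levels.

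Bad, a BH3-only protein that growth factor signals keep inactive by phosphorylation, lay between 7.54 and 7.74 in Vav-SB tumours, with a median of 7.67, against 7.51 to 8.24 in CD4-SB tumours, with a median of 7.90. Of the CD4-SB tumours 6 lay above every Vav-SB tumour, and replicate 3, at 7.51, lay below all of them. The means were 7.66 ± 0.08 in Vav-SB tumours and 7.92 ± 0.24 in CD4-SB, with a difference of -0.26, an interval of -0.47 to -0.05 and an adjusted p of 0.0931 (unadjusted p = 0.0185, limma). Without CD4-SB replicate 3 the difference passed at -0.33 (adjusted p = 0.0177), as it did with array weights (0.0325) and with bright probe sets (-0.43, adjusted p = 0.0271). Of the 6 probe sets 5 were lower in Vav-SB. Probe set 4982096 ran from 8.35 to 9.03 in Vav-SB tumours and from 8.92 to 9.86 in CD4-SB (difference -0.68, adjusted p = 0.025), and 5525339 differed by -0.64 (adjusted p = 0.105). The call of 4982096 ended without CD4-SB replicate 1, CD4-SB replicate 6 or Vav-SB replicate 5, at differences of -0.62, -0.61 and -0.67 (adjusted p from 0.0504 to 0.0517), and with the marker covariate at -0.56 (adjusted p = 0.312). The dimmest Bad probe set, 4718753, went the other way at 0.22 (adjusted p = 0.648).

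Bak1, the effector of the family measured here, lay between 8.15 and 9.05 in Vav-SB tumours, with a median of 8.49, and between 8.28 and 9.07 in CD4-SB tumours, with a median of 8.60. The ranges were nearly the same. The means were 8.57 ± 0.31 in Vav-SB tumours and 8.66 ± 0.31 in CD4-SB (difference -0.09, interval -0.43 to 0.24, adjusted p = 0.762). Its 6 probe sets lay between -0.27 and 0.05, and 5 of them were lower in Vav-SB.

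**Figure D4:**
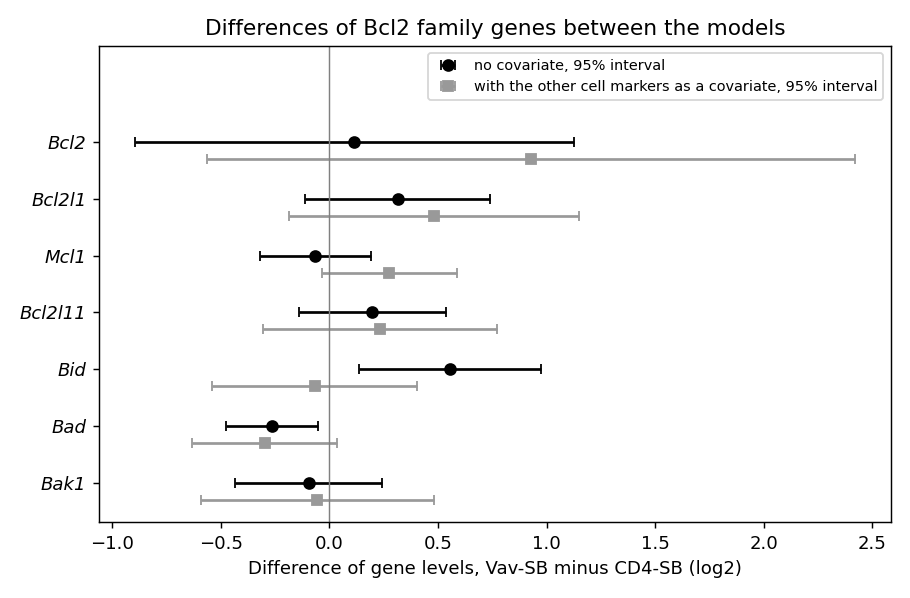
Difference of gene level, Vav-SB minus CD4-SB (log2), with 95% intervals from limma, without a covariate (black circles) and adjusted for the other-cell marker level (grey squares). Without it the intervals of Bid (0.14 to 0.97) and Bad (-0.47 to -0.05) leave out 0, unadjusted for the number of genes, and with it all 7 intervals include 0.

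No family probe set differed from the rest of its gene past the threshold (0 of 67 by limma's diffSplice, against 1.33% of all probe sets tested). At an unadjusted p under 0.05 there were 4, where 8.7% of all probe sets were. When each probe set was tested less the mean of the others with its own spread, the counts were 0 (against 1.77% of all probe sets) and 8 (against 15%). In simulated data this second test found 0% of shifts of 0.5 and 32.8% of shifts of 1, and diffSplice 10.4% and 64.2%. The probe set test found 1.49% and 40.3% of them, and the gene test 47.8% and 79.1% of such shifts in gene levels. The simulation shifted far fewer genes and probe sets than passed here, and it drew each probe set of a gene independently. Its shares need not be those of the real tests. A count of 0 or a missing call still does not show that small shifts are absent in any of these tests.

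Within a model, family genes did not rise and fall as a unit. Over the 42 pairs of tumours of 1 model, 2 genes that order them alike agree in 42, and for each member the median gene above the median level agreed in 19 to 23. Pairs of members agreed in 7 to 30. The highest count was for Mcl1 with Bak1, at 30, a count as high as that in 11.5% of genes set against Mcl1. The lowest was for Mcl1 with Bid, at 7, a count as low as that in 2.34% of genes set against Mcl1. Bad went against Bcl2l1 (8 pairs) and against Bcl2l11 (9 pairs), which few genes did to that degree (0.797% and 0.62%). Bcl2l1 and Bcl2l11 agreed in 29, a count as high as that in 3.58% of genes set against Bcl2l1. The pairs share tumours, and some CD4-SB tumours share a title number, so these counts are descriptions. Mcl1 and Bid also stood on opposite sides of the marker level, as above, and the part of other cells in their order was not tested.

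Genes most like a member in this sense, among 7901 genes above the median level, were Arap1 and Rnasek for Mcl1 (40 of 42 pairs each) with Pon3 (39). For Bid they were Pds5b (40), Orc3 and Zcchc8 (39 each). Bak1 was followed by Coro7, Dvl3 and Capzb (38 each), and Bad by Mettl23 (38), Gpn2 and Ebp (35 each). The top counts for the other members were lower, with Whamm, Arhgef1 and Tbc1d10c for Bcl2 and Ssbp2, Pan3 and Ercc5 for Bcl2l1 (36 each), and Tnrc18, Ubr2 and Ccnl1 for Bcl2l11 (35 each). All these genes were picked as the highest counts among 7901. How high the top counts would be among unrelated genes was not tested.

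The rest of the pathway was counted over lists of textbook members. These lists were chosen with earlier results of these data known, so the shares that passed in them are descriptions only. The median difference of the 7 family genes was 0.12, and that of all genes 0.00. Of 2 other survival genes measured, Bcl2l2 and Bcl2l10, neither passed (adjusted p = 0.483 and 0.42, at unadjusted p of 0.242 and 0.193, limma). Of 9 further effector and BH3-only genes 2 rose and 1 fell, with a median of -0.02. These made up 33.3% of the list, against 14.5% of all genes, and the list was not tested as a set. With only genes above the median level tested, 1897 of 7901 genes passed, and 2 of this list. Bcl2l14 was 1.98-fold higher in Vav-SB, at 6.94 ± 0.50 against 5.96 ± 0.31 in CD4-SB (adjusted p = 0.00594), and kept its call in all 22 settings that gave it a value. Both means lay under the median level of all genes, 7.22, so the setting with only genes above that level left it out. Bmf, a BH3-only gene, rose 1.36-fold (adjusted p = 0.0409), and Bnip3, a mitochondrial protein induced by low oxygen, was lower by 0.49 on the log2 scale (adjusted p = 0.0369). The Bmf call held without Vav-SB replicate 1 or 2 and ended without any one of the other 12 tumours. That of Bnip3 held without CD4-SB replicates 4, 5 and 6 and Vav-SB replicates 1 and 3, and ended without any one of the other 9. Both calls also ended with array weights (adjusted p = 0.0796 for Bmf and 0.0543 for Bnip3), 1 tumour per title number (0.102 and 0.11) and the marker covariate (0.11 and 0.385), and that of Bmf with the median summary (0.105). Bbc3 and Pmaip1, encoding the p53-induced PUMA and NOXA, were at 7.43 ± 0.13 and 6.96 ± 0.20 in Vav-SB tumours and at 7.45 ± 0.11 and 7.15 ± 0.25 in CD4-SB (adjusted p = 0.907 and 0.336).

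Of 13 genes of the apoptosome, the caspases and their inhibitors 1 rose and 2 fell, with a median of 0.06. The share that passed was 23.1%, against 14.5% of all genes, and the list was not tested as a set. Every gene of this list lay above the median level of all genes. With only genes above that level tested, 1897 of 7901 genes passed, and 3 of this list. Htra2, a mitochondrial protease that counters caspase inhibitors, was at 8.11 ± 0.17 in Vav-SB tumours and 8.68 ± 0.26 in CD4-SB (adjusted p = 0.00568), and the inhibitor Birc3 at 8.60 ± 0.39 in Vav-SB tumours and 9.53 ± 0.60 in CD4-SB (adjusted p = 0.0223). Casp2 rose 1.43-fold (adjusted p = 0.0393), a call that held without CD4-SB replicates 2, 4 and 7 and Vav-SB replicates 3 and 4 and ended without any one of the other 9 tumours, and when probe sets were summarised by their median (adjusted p = 0.198). With the marker covariate Birc3 went to -0.09, Casp2 to 0.14 and Htra2 to -0.50, none past the threshold. None of 10 death receptor genes passed in limma, against 14.5% of all genes, with a median of -0.11. The unadjusted p was under 0.05 for 3 (Tnfrsf1a, Ripk1 and Tnfrsf10b, all lower in Vav-SB). That is close to the share of all genes at that level, 27.8%. The count past the adjusted threshold was 2 without CD4-SB replicate 7, with bright probe sets or with 1 tumour per title number. It was 1 without Vav-SB replicate 3, and with genes above the median level, array weights or the marker covariate. Tnfrsf1a came closest (difference -0.49, adjusted p = 0.066), and Fas was at 7.98 ± 0.51 in Vav-SB tumours and 7.51 ± 0.96 in CD4-SB (adjusted p = 0.465).

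Of 20 factors and enzymes known to act on family genes or proteins 4 rose and 3 fell, with a median of 0.26. Thus 35% of this list passed, against 14.5% of all genes, and the list was not tested as a set. It was chosen with earlier results of these data known, so its share is a description only. With only genes above the median level tested, 1897 of 7901 genes passed, and 7 of this list. Myb lay between 10.16 and 10.92 in Vav-SB tumours and between 7.05 and 9.78 in CD4-SB tumours. The models did not overlap for Myb, at a 4.08-fold difference (adjusted p = 0.00119), while for Bcl2 they did. Within CD4-SB, replicate 3 with the highest Bcl2 was at 8.86 for Myb, and replicate 7 with the highest Myb, 9.78, was at 7.61 for Bcl2. Replicate 2 was the lowest of its model for both, at 7.05 for Myb and 7.16 for Bcl2. Whether Bcl2 follows Myb among these tumours was not tested. The ubiquitin ligase subunit Fbxw7 and the ligase Huwe1, both of which can mark MCL1 for destruction, were 1.41-fold and 1.19-fold higher without overlap (adjusted p = 0.00592 and 0.0166). Ppp3ca, the calcineurin subunit whose phosphatase acts on BAD, was at 8.29 ± 0.48 in Vav-SB tumours and 9.43 ± 0.53 in CD4-SB (adjusted p = 0.00759). The marker covariate ended these 4 calls, at 1.99 for Myb (adjusted p = 0.0579), 0.61 for Fbxw7 (0.0518), 0.16 for Huwe1 (0.382) and -0.33 for Ppp3ca (0.54), and summarising probe sets by their median ended that of Huwe1 (0.0684). Without the covariate the differences were 2.03 for Myb, 0.49 for Fbxw7, 0.25 for Huwe1 and -1.15 for Ppp3ca. The number of these 20 genes past the threshold was 0 with the marker covariate, 3 with the median summary, and 4 without Vav-SB replicate 2 or Vav-SB replicate 5. Among the 9 effector and BH3-only genes it was 1 with the marker covariate, with 1 tumour per title number and without any one of CD4-SB replicates 1, 2, 3 and 7 and Vav-SB replicates 4, 5, 6 and 7.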

How the data were processed

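RNA of 14 frozen tumours, 7 per strain label, was amplified as cDNA and hybridised to mouse exon arrays, per the labels' protocols. The authors deposited 1 log2 value per probe set and array. Per the submitters' processing notes, tools were RMA and Partek (no version), and the log base is read from the range of the values, 2.03 to 14.03. No filter or detection call is given, so dim probe sets could not be flagged and were kept in the gene levels. The number of arrays limits the precision. The platform annotation paired 179496 of 194293 probe sets with 1 gene symbol, 1328 with several and 13469 with none. Symbols were updated with a RefSeq gene table (2014 replaced), which left 15803 genes. Probe set positions were not used.

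Replicates were numbered in accession order. Differences were fitted with limma 3.58.1 (lmFit, eBayes) in R 4.3.3 on means over probe sets, on all probe sets, and with diffSplice on 177027 probe sets of genes with at least 3, and adjusted over each whole table. These fits were tested on simulated data, where diffSplice made many calls in genes left unchanged. Exact permutation tests ran over 3432 splits. Family genes, lists and markers were chosen with earlier results of these data known. Named from each list were up to 4 genes past the threshold with the smallest adjusted p; list genes named beyond these, and probe sets beyond those past the threshold and each member's brightest and dimmest, were chosen after their values were seen. Alternatives were a median over probe sets, quantile normalization, bright probe sets, genes above the median, array weights, a trended prior, 1 tumour per title number, that number as a random block, a marker covariate and each tumour left out.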

Additional observations from a re-analysis of the deposited data

Results flagged for a closer look

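Of 36 groups of 7 tumours checked for a value apart from the rest, 2 held one, where chance sets about 5% of groups apart. For Bmf, CD4-SB replicate 4 was at 6.80, next to 7.02, and for Ppp3ca CD4-SB replicate 7 was at 8.35, next to 9.33. Bcl2 in CD4-SB replicate 3, at 10.94, did not stand apart by this check, since replicate 5 followed at 9.22.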

How the results depend on the processing

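The 7 family genes gave 0 calls with a median over probe sets, quantile normalization, genes above the median level, a trended prior and the marker covariate. With bright probe sets and with array weights the count was 2 (Bid and Bad), with 1 tumour per title number and with that number as a random block it was 1 (Bid), and with each tumour left out it was 0 to 1. Of all genes 434 passed with the marker covariate and 1628 to 2518 with a tumour left out, against 2284. Of all probe sets 16412 passed, 2666 with the marker covariate and 11171 to 17947 with a tumour left out. The test of a probe set against its gene called 2356, with 1348 for bright probe sets, where fewer were tested, 1338 for the marker covariate and 1769 to 2585 with a tumour left out; the own-spread test, chosen after seeing the data, called 3138. The marker level differed by -0.77, and by -0.87 to -0.67 with a tumour left out. Except where given, the cause of a change was not tested. No called difference of a named gene changed sign. No paired analysis was possible because the replicate numbers follow accession order and pair no tumours.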
